A study of Mus with 6 samples.

Results

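The genes of the fatty acid binding proteins Fabp1 to Fabp7 were examined in the hippocampus of mice loaded with forced swim stress (FSS) and of control mice. They were taken from the deposited table of log2 levels as the rows whose array annotation gives exactly 1 gene symbol that names a member, and all 7 members were measured among the 19938 genes with such a row. Where a symbol had more than 1 row, the row of the highest mean level in all 6 mice was kept, so that the level, and not the difference between groups, chose it. This choice applied to 2 members, Fabp3 and Fabp5, and both of their rows are described. The 3 control mice and 3 FSS mice were male C57BL/6JJmsSlc animals, with a labelled age of 10 to 11 weeks. FSS mice swam for 11 min per day on 5 days in a cylinder from which they could not escape, and control mice did not swim. In the paper's schedule a tail suspension test followed the swims, and the hippocampus was collected on a later day. The paper measured this test in nonstressed control mice as well. Both groups shared the strain, the sex and the housing, and no engineered allele is named for them. RNA of the whole dissected hippocampus of each mouse was read on 1 Affymetrix Mouse Gene ST array, so n is the number of mice. In RNA of whole tissue, fewer cells of a type and less RNA per cell cannot be told apart.

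Fatty acid binding proteins are small cytosolic proteins that fold into a barrel around a long-chain fatty acid or a related lipid. They carry these insoluble ligands between membranes, mitochondria, lipid droplets and the nucleus, where lipid-sensing receptors such as the PPARs can take them up. Each form is typical of certain tissues. Fabp7, the brain form, marks radial glia and astrocytes and prefers polyunsaturated fatty acids, Fabp5, first described in epidermis, is widely found in neural and vascular cells, and Fabp3, first described in heart, is also found in neurons. Fabp1 is the liver form, Fabp2 the intestinal form, Fabp4 the form of adipocytes and macrophages, and Fabp6 carries bile acids in the ileum.

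The labelled tissue was compared with its markers first. All 8 measured markers of hippocampal neurons, among them Prox1 of granule cells and Wfs1 of pyramidal cells, lay above the median mean level of the table, between percentiles 62.1 and 95.8 of the 21789 rows with 1 symbol. All 10 markers of astrocytes did as well. Of 8 markers of intestine and liver 1 lay above that median, and of 5 measured markers of adipocytes 0 did. The level of a row depends on how well its probes bind as well as on the amount of RNA, so percentiles are given as the place of a row in the table and not as a comparison of amounts between genes.

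Of the 7 members, Fabp7, Fabp3 and Fabp5 had mean levels above the median of the table, and the other 4 lay below percentile 10. The 8 markers of intestine and liver lay between percentiles 4.02 and 69.9, with a median of 16.6. The 5 measured markers of adipocytes lay between 7.60 and 40.7. Fabp7 was higher in FSS mice, Fabp5 was higher in 1 of its 2 rows, and the other members did not pass an unadjusted p under 0.05 from limma. This threshold was passed by 5.14% of all rows tested, 2.49% higher and 2.66% lower in FSS mice. With 7 members, a count of 1 higher and 0 lower does not set the family apart from that background. Of the 21789 rows, 1121 passed the unadjusted threshold and 0 an adjusted p of 0.05, the smallest adjusted p being 0.872. The 7 members had a median log2 fold change of 0.014, against 0.0039 over all 19938 genes.

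Fabp7 had log2 levels of 11.95, 11.56 and 11.98 in control mice 1, 2 and 3, and of 12.23, 12.25 and 12.23 in FSS mice 1, 2 and 3. The groups did not overlap, and the lowest FSS mouse lay 0.26 above the highest control mouse. The FSS mice lay almost on 1 level, whereas control mouse 2 lay clearly below the other control mice. The means were 11.83 ± 0.23 (SD, n = 3) in control mice and 12.24 ± 0.0090 (SD, n = 3) in FSS mice. The log2 fold change was 0.41 (standard error, SE, 0.11, 95% interval 0.15 to 0.67), a 1.33-fold difference, which passed the unadjusted threshold, with adjusted p = 0.943 from limma over 21789 rows. An exact two-sided permutation test gave p = 0.1, the smallest that 3 mice against 3 allow. Groups without overlap were found in 10.3% of all rows, in 6.02% with FSS mice above and in 4.25% with FSS mice below. The mean level of Fabp7 lay at percentile 98.6, with 299 rows above it. Its rise was the sixth largest of the 10894 rows above the median level and rank 18 of all rows tested, and its p was rank 160. The difference stayed below the paper's threshold of 0.5 on the log2 scale, which with p under 0.05 was passed by 15 rows, or 0.0688%.

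**Figure D1:**
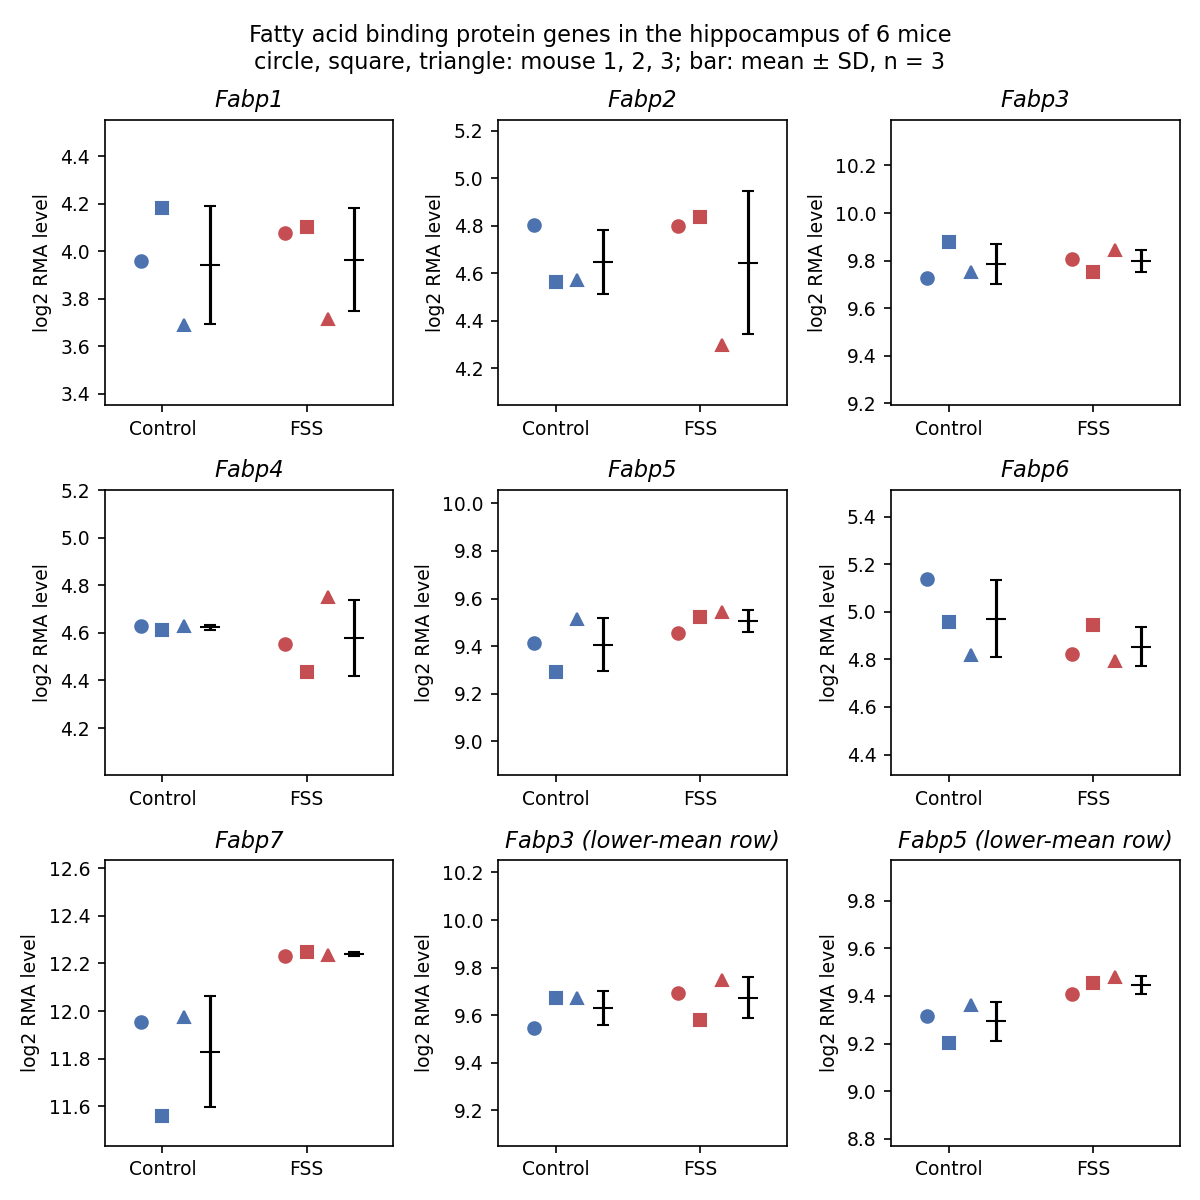
Log2 RMA level (y axis) of the 7 members and of the lower-mean rows of Fabp3 and Fabp5 in control and FSS mice (x axis), with each panel spanning the same range on the log2 scale. Circles, squares and triangles are mice 1, 2 and 3 of a group and bars are the mean ± SD (n = 3). The FSS mice share almost 1 level of Fabp7, 12.23 to 12.25, above the highest control mouse at 11.98.

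The size of the rise of Fabp7 depended on control mouse 2. Without this mouse its value was 0.27 (SE 0.046), and without each of the other mice it was 0.40 to 0.48, and it passed in every such omission. The 6 arrays also differed slightly in the spread of their values, with SDs of 2.22 to 2.23 on 3 arrays (control mice 1 and 2 and FSS mouse 2) and of 2.26 to 2.27 on the others. When this split entered limma as a block, the value for Fabp7 was 0.37 (SE 0.12) and still passed. It was 0.49 within the arrays of narrower spread, with 1 FSS mouse, and 0.26 within those of wider spread, with 1 control mouse.

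Fabp5 is represented by 2 rows, which did not give the same call. In the row with the higher mean, control mice had log2 levels of 9.41, 9.29 and 9.51, and FSS mice 9.46, 9.52 and 9.54. Control mouse 3 lay among the FSS mice, so the groups overlapped. This row had a log2 fold change of 0.10 (SE 0.065, 95% interval -0.055 to 0.26, limma adjusted p = 0.945) and did not pass. In the row with the lower mean, levels were 9.32, 9.20 and 9.36 in control mice and 9.41, 9.45 and 9.48 in FSS mice. Here the groups were apart, by 0.045 at the nearest. Its log2 fold change was 0.15 (SE 0.055, 95% interval 0.022 to 0.28, limma adjusted p = 0.943), a 1.11-fold difference, and passed the unadjusted threshold. It no longer passed without control mouse 2 (0.11), FSS mouse 2 (0.15) or FSS mouse 3 (0.14), or with the array spread as a block (0.14). The row with the higher mean passed without control mouse 3 (0.15), and was 0.044 without control mouse 2. For the mean of both rows the log2 fold change was 0.13 (SE 0.060) and did not pass.

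The array annotation gives both rows of Fabp5 the same gene, and likewise those of Fabp3. RefSeq of GRCm38.p6 also lists the pseudogenes Fabp5l2 and Fabp3-ps1, named after Fabp5 and Fabp3, and the table does not give the place of the probes. Which row reports the coding gene alone was not settled, and the levels of both members are uncertain to that extent.

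Fabp3 had log2 levels of 9.73, 9.88 and 9.75 in control mice and of 9.81, 9.75 and 9.84 in FSS mice in its row with the higher mean. The groups overlapped throughout. The difference was 0.014 on the log2 scale (SE 0.056, 95% interval -0.12 to 0.15, limma adjusted p = 0.993). The row with the lower mean had levels of 9.55, 9.67 and 9.67 in control mice and of 9.69, 9.58 and 9.75 in FSS mice, and here too the groups overlapped. Its log2 fold change was 0.044 (SE 0.062, 95% interval -0.10 to 0.19, limma adjusted p = 0.975). Differences of over 0.2 on the log2 scale in either direction lay outside both intervals. The direction for the higher-mean row turned with quantile normalization and in 3 of 6 omissions of 1 mouse.

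Fabp4, the adipocyte and macrophage form, had log2 levels of 4.63, 4.61 and 4.63 in control mice and of 4.55, 4.43 and 4.75 in FSS mice. The control mice lay between FSS mouse 1 and FSS mouse 3. The log2 fold change was -0.043 (SE 0.080, 95% interval -0.23 to 0.15, limma adjusted p = 0.979), and without FSS mouse 2 it was 0.029. The mean level lay at percentile 7.52. The 5 measured markers of adipocytes lay between 7.60 (the hormone gene Adipoq) and 40.7, with a median of 32.8.

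Fabp6, the ileal carrier of bile acids, had log2 levels of 5.14, 4.96 and 4.82 in control mice and of 4.82, 4.95 and 4.79 in FSS mice. Control mouse 1 lay above all others. On the log2 scale the difference was -0.12 (SE 0.088, 95% interval -0.33 to 0.091, limma adjusted p = 0.958) and did not pass. It was -0.20 without control mouse 3, where it passed, and -0.035 without control mouse 1. The mean level lay at percentile 9.88. Slc10a2, the bile acid transporter of the ileum, lay at 8.12, and the 8 markers of intestine and liver lay between 4.02 and 69.9.

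Fabp1, the liver form, had log2 levels of 3.96, 4.18 and 3.69 in control mice and of 4.08, 4.10 and 3.71 in FSS mice. Mouse 3 was the lowest of each group, and the spread within groups was far larger than the log2 fold change of 0.021 (SE 0.15, 95% interval -0.34 to 0.38, limma adjusted p = 0.996). Fabp2, the intestinal form, had levels of 4.80, 4.56 and 4.57 in control mice and of 4.80, 4.84 and 4.30 in FSS mice, with FSS mouse 3 the lowest of all. Its log2 fold change was -0.0022 (SE 0.15, 95% interval -0.36 to 0.36, limma adjusted p = 1.00). The mean levels of Fabp1 and Fabp2 lay at percentiles 3.94 and 7.83. The intervals of these members are wide, and the directions of Fabp1 and Fabp2 turned under several settings, so that no direction is given for them.

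Related intracellular lipid binding proteins share the barrel fold and include carriers of retinoids. Of 8 listed, 7 were measured, 1 was higher and 1 was lower in FSS mice at an unadjusted p under 0.05, and 5 did not pass. The median log2 fold change was -0.081. In RefSeq, Fabp5, Pmp2, Fabp9, Fabp4 and Fabp12 follow one another on the chromosome, with a non-coding RNA and a transcribed pseudogene between Fabp5 and Pmp2. Of these neighbours, Fabp5 had a mean level above the median of the table and the others lay between percentiles 7.52 and 11.7.

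Fabp12, the last gene of that cluster, had log2 levels of 4.88, 4.99 and 4.98 in control mice and of 5.20, 5.49 and 5.07 in FSS mice. All FSS mice lay above all control mice, with FSS mouse 2 the highest. The difference on the log2 scale was 0.30 (SE 0.11, limma adjusted p = 0.943), which passed the unadjusted threshold. It did not pass without control mouse 1 (0.27) or by the methods' t-test, and it was 0.19 without FSS mouse 2 and 0.39 without FSS mouse 3. Its level at percentile 11.7 is that of the dim rows. Fabp9, which is known from the testis, had a log2 fold change of -0.18, which did not pass, and one of -0.29 without control mouse 3, which did. Pmp2, which encodes a fatty acid binding protein of peripheral myelin, had one of -0.10, which did not pass. It was -0.25 without FSS mouse 2, where it passed, and 0.0066 without FSS mouse 1. The retinoic acid carriers Crabp1 and Crabp2 had log2 fold changes of -0.040 and -0.081 and the retinol carrier Rbp7 one of -0.0059, none of which passed, and Crabp2 passed without FSS mouse 2 (-0.17). Rbp2, a cellular retinol carrier of the intestine, was lower in FSS mice (log2 fold change -0.20, SE 0.080, limma adjusted p = 0.943), but the groups overlapped and the threshold was missed in 9 of 15 alternatives, among them the omission of any mouse but control mouse 3.

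**Figure D2:**
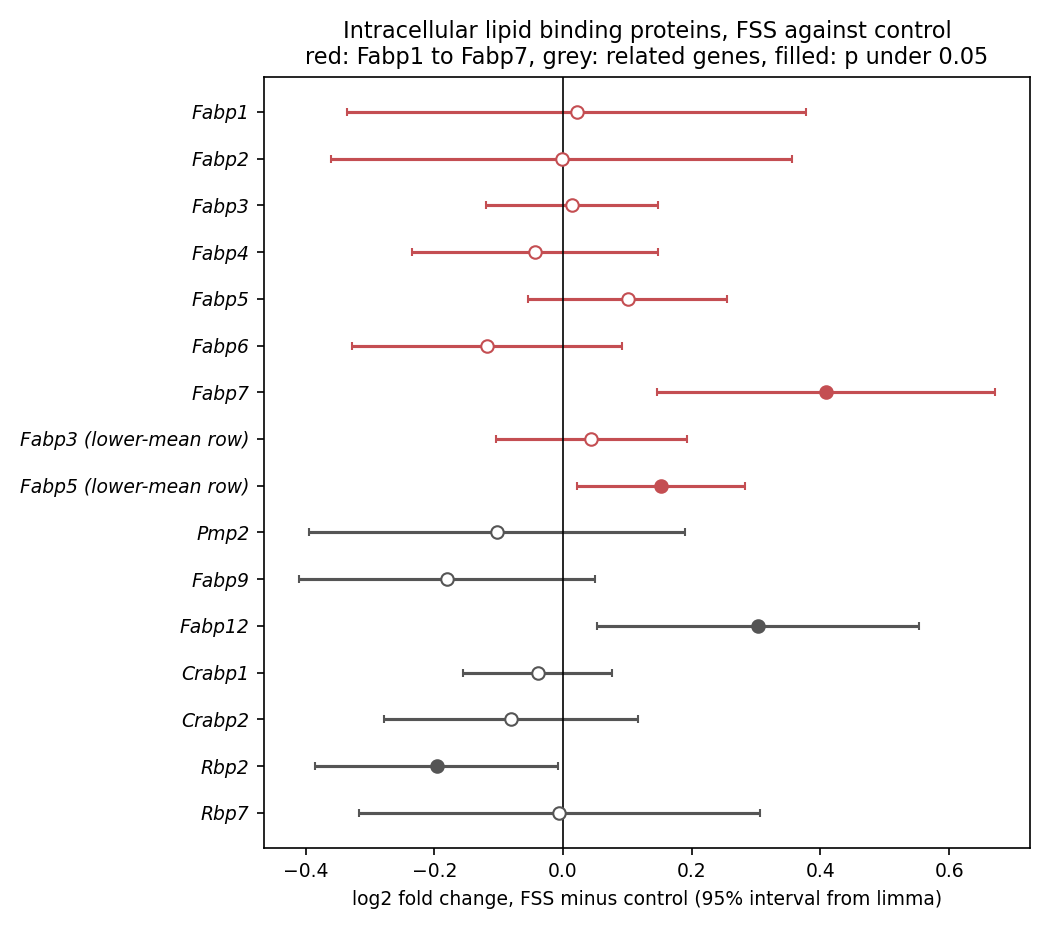
Log2 fold change of FSS minus control (x axis) with its 95% interval from limma for each row of Fabp1 to Fabp7 (red) and of 7 related genes (grey), listed on the y axis and filled where the unadjusted p was under 0.05. The interval of Fabp7 reaches from 0.15 to 0.67, and those of Fabp1 and Fabp2 span more than 0.3 on both sides of 0.

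The genes around these carriers were grouped by role. Over the 6 lists of the pathway, the related carriers included, 78 genes were measured, of which 4 were higher, 3 were lower and 71 did not pass. This is 8.97%, against 5.14% of all rows tested. The counts were 2 to 5 higher and 0 to 3 lower when each mouse was left out in turn, with 0 lower without control mouse 2 or FSS mouse 1 and 2 higher without FSS mouse 1 or FSS mouse 3.

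Of 15 measured genes of fatty acid uptake and activation, 1 was lower and 0 were higher (median log2 fold change 0.014). The lower gene was Mfsd2a, the transporter that takes lysolipids with docosahexaenoic acid across the blood-brain barrier. It had log2 levels of 10.16, 10.53 and 10.60 in control mice and of 10.07, 10.06 and 10.19 in FSS mice, so that FSS mouse 3 lay just above control mouse 1. On the log2 scale Mfsd2a differed by -0.32 (SE 0.12, limma adjusted p = 0.943). It was -0.46 without control mouse 1 and did not pass without control mouse 2 or 3 or FSS mouse 1 or 2, where it was -0.24 to -0.30.

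Of 10 lipid-sensing nuclear receptors, 1 was higher and 0 were lower (median log2 fold change -0.040). The higher gene was Rarb, a retinoic acid receptor, with a log2 fold change of 0.14 (SE 0.052), which did not pass when control mouse 3, FSS mouse 1 or FSS mouse 3 was left out (0.096 to 0.13). None of the 3 PPAR genes passed. Of 17 measured genes of fatty acid oxidation and PPAR targets, 1 was higher and 0 were lower (median 0.015). It was Slc25a20, the mitochondrial carrier of acylcarnitines, with a log2 fold change of 0.15 (SE 0.056). It passed without control mouse 3 (0.17) or FSS mouse 1 (0.18), and did not without any of the other mice (0.11 to 0.16).

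Of 16 genes of fatty acid synthesis, desaturation and release, 1 was higher and 1 was lower (median 0.039). Elovl5, an elongase of polyunsaturated fatty acids, had log2 levels of 10.18, 10.04 and 10.27 in control mice and of 10.36, 10.30 and 10.37 in FSS mice, and the groups did not overlap. Its log2 fold change was 0.18 (SE 0.066), and it did not pass without control mouse 1 or 2 or FSS mouse 1 or 3, where it was 0.12 (without control mouse 2) to 0.19. Pnpla2, the lipase that opens triglyceride breakdown, had levels of 8.05, 8.38 and 8.43 in control mice and of 7.93, 7.95 and 8.08 in FSS mice, which overlapped. The difference was -0.30 on the log2 scale (SE 0.11). It was -0.23 to -0.28 without control mouse 2 or 3 or FSS mouse 1 or 2, where it did not pass. Of 13 genes of endocannabinoid synthesis, breakdown and reception, whose lipid ligands Fabp5 and Fabp7 can carry, 0 passed in either direction (median 0.030). When control mouse 1 or 2 was left out, 1 was higher.

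**Figure D3:**
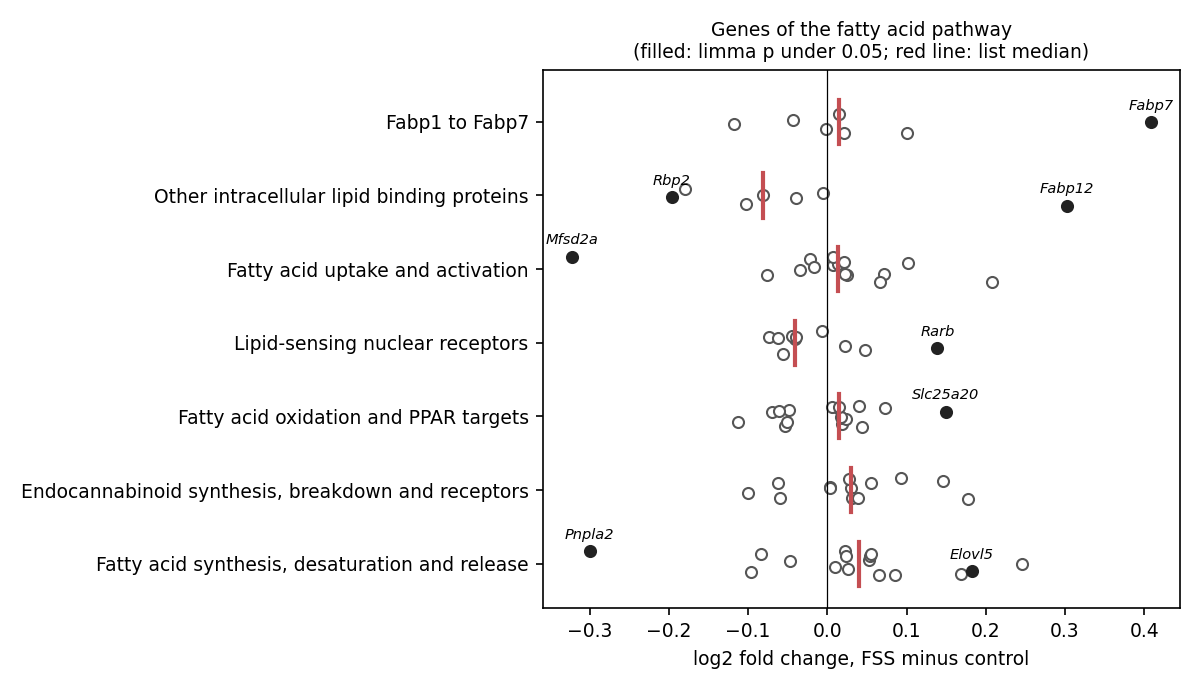
Differences between FSS and control mice as log2 fold changes (x axis) for each measured gene of the 7 members and of 6 pathway lists (y axis). Circles are genes, filled and named where they passed an unadjusted p under 0.05 from limma, and red lines are list medians. Fabp7, at 0.41, lies farther from 0 than any gene of the pathway lists, of which Mfsd2a reaches -0.32.

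Since Fabp7 marks glia, its levels were set beside those of cell type markers. Of 10 astrocytic markers, 3 were higher (Aqp4, Gfap and Gja1), 2 were lower (Aldoc and Glul) and 5 did not pass. Of all rows tested, 2.49% were higher and 2.66% lower. The mean log2 level of the astrocytic list was 10.68 to 10.73 in control mice and 10.75 to 10.81 in FSS mice, so that the groups did not overlap. Its difference of 0.061 was smaller than that of Fabp7, but averages 10 genes whose log2 fold changes ran from -0.10 to 0.33. For single rows, the groups did not overlap in 10.3% of the table, and no such share was computed for list means. Without each mouse 1 or 2 astrocytic markers were higher and 0 were lower. Aqp4, the water channel of astrocytic endfeet, had levels of 9.81, 9.53 and 9.69 in control mice and of 10.09, 9.96 and 9.99 in FSS mice. Its log2 fold change was 0.33 (SE 0.078, limma adjusted p = 0.943), and it passed in each such omission. Of 9 measured markers of radial glia and progenitors, 2 were higher (Hopx and Pax6) and 0 were lower. Their mean level was 7.96 to 8.02 in control mice and at most 8.21 in FSS mice, with overlap. Without FSS mouse 1, 0 of them were higher.

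Taken relative to the mean of the 10 astrocytic markers in the same mouse, Fabp7 was 1.22, 0.88 and 1.24 in control mice and 1.42, 1.50 and 1.46 in FSS mice on the log2 scale. The groups did not overlap, and the difference was 0.35. Relative to radial glia and progenitor markers the difference was 0.30, also without overlap. Of 6 measured microglial markers, 2 were higher (Trem2 and Cx3cr1), 0 were lower and 4 did not pass. The count of higher markers was 3 when control mouse 1 was left out, and 1 when control mouse 2 or 3 or FSS mouse 2 was. The mean level of the 6 was 8.34 to 8.45 in control mice and 8.48 to 8.56 in FSS mice, without overlap. The mean of the 8 markers of hippocampal neurons did not overlap either, at 9.76 to 9.85 in control mice and 9.86 to 9.89 in FSS mice, and its difference of 0.051 was close to the 0.061 of the astrocytic list. Of these neuronal markers, Prox1 was higher and 7 did not pass. Control mouse 2 was the lowest mouse for Fabp7 and for the mean of astrocytic, microglial, neuronal and endothelial markers, but not for the other marker lists. Of 7 markers of the choroid plexus, Ttr was higher and 6 did not pass, and their mean level was 6.78 to 7.11 in control mice and 7.03 to 7.25 in FSS mice, with overlap. Relative to this mean, Fabp7 differed by 0.25 between the groups, which then overlapped. Within the list, Ttr differed by 0.95 and the other 6 markers by -0.12 to 0.25. The level of Ttr was 7.56 in control mouse 3, against 8.62 and 8.91 in control mice 1 and 2. Of the other lists, that of the meninges had 1 higher marker (Lum), and those of endothelium, oligodendrocytes, adipocytes and of intestine and liver had 0 in either direction. The means of these lists differed by 0.12 (meninges), 0.074 (endothelium), -0.021 (oligodendrocytes), -0.018 (adipocytes) and 0.019 (intestine and liver). The part of these cell types in the difference of Fabp7 was not tested.

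**Figure D4:**
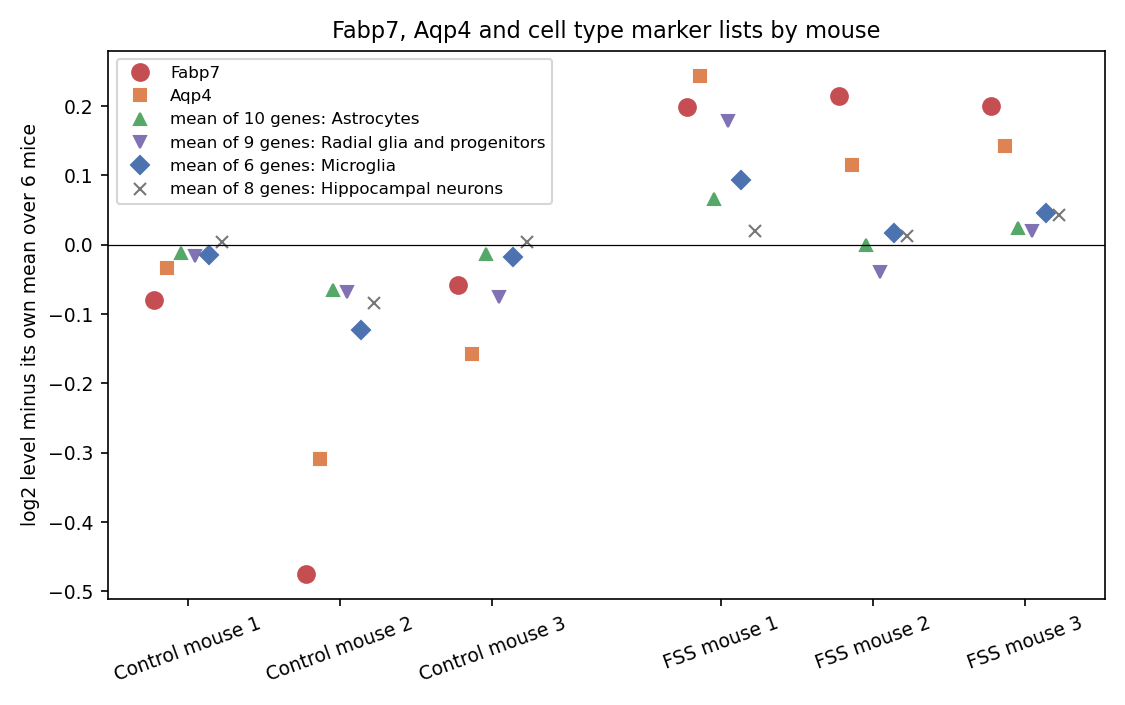
Log2 level minus its own mean over 6 mice (y axis) of Fabp7, Aqp4 and the means of 4 cell type marker lists in each mouse (x axis). Each symbol is 1 mouse, shifted sideways for legibility. Fabp7 and Aqp4 are lowest in control mouse 2 and above 0 in all FSS mice. The marker lists, which are means of several genes, move within a narrower range than these single genes.

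The pattern of Fabp7 over the 6 mice was then compared with that of 9856 other genes above the median level by the root mean square distance between log2 levels centred on their own mean. The nearest were Fcrls, a microglial gene (distance 0.077), Aqp4 (0.095) and H2ac15, a histone gene (0.099), and these 3 were the only genes within 0.1. Fcrls had a log2 fold change of 0.33 (SE 0.14), which did not pass as fitted but passed in 8 of 16 alternatives, and which ranged from 0.16 without control mouse 2 to 0.44 without control mouse 1. H2ac15 had one of 0.29 (SE 0.076), which passed. These genes were chosen for their likeness to Fabp7 in the same 6 mice. Their differences between groups are therefore no separate evidence for that of Fabp7. For Fabp5, 5866 genes lay within 0.1, and for Fabp3 8259 did, so the patterns of these flatter members were shared by much of the table and no genes are named for them.

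Across settings, Fabp7 was higher at an unadjusted p under 0.05 from limma or the methods' t-test in all 16 alternatives, with adjusted p-values from 0.570 to 1.00. The estimates of its log2 fold change ranged from 0.27 to 0.48. Fabp5 in its higher-mean row had the same direction in every alternative and passed in 2 of 17, which include the use of the other row.

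**Figure D5:**
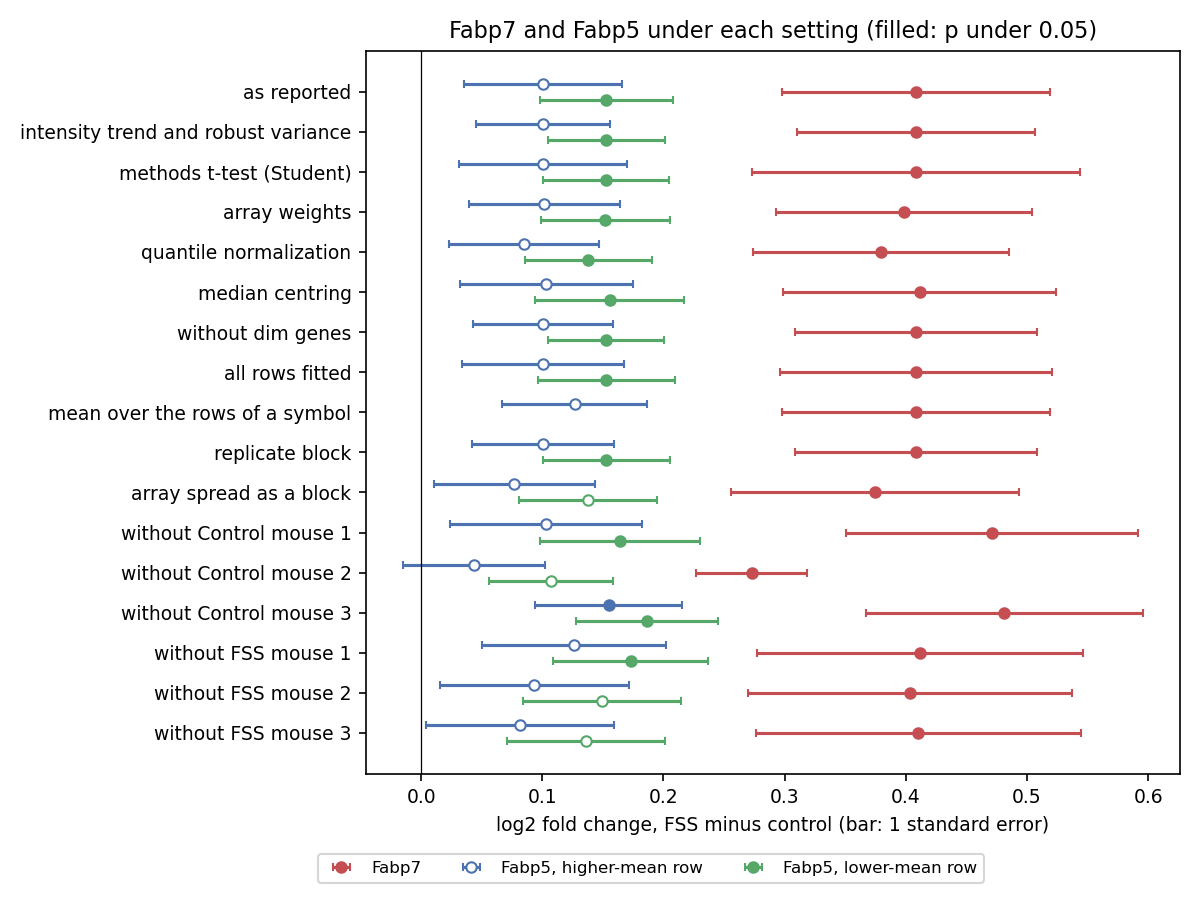
Log2 fold change of FSS minus control (x axis) of Fabp7 and of both rows of Fabp5 under each setting (y axis), with bars of 1 standard error and filled symbols where the unadjusted p was under 0.05. Fabp7 is filled throughout and lowest, at 0.27, without control mouse 2.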

How the data were processed

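Per the labels, hippocampal RNA of each of 3 control and 3 FSS mice was hybridised to a GeneChip of the Mouse Gene ST type. The authors deposited log2 values after RMA, for which the notes of the submitters name Affymetrix Expression Console. RMA brings arrays to nearly the same distribution, so differences are relative to the other genes. The number of arrays limits the precision. The table has 28944 rows, of which 21789 have 1 gene symbol, 1621 several and 5534 none here. RefSeq held the gene IDs of 21698 of the 21789 and changed 0 symbols. No coordinates are given, since the table names no build.

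FSS minus control was fitted over the 21789 rows with limma 3.58.1 (lmFit, eBayes) in R 4.3.3, with no covariate and Benjamini-Hochberg adjustment over all rows. The step was tested on simulated data. Genes called are those with an unadjusted p under 0.05. All members were named, as were list genes with p under 0.05 (at most 3 per list), the related carriers and, for members above the median level, the nearest genes by pattern. Markers named to check the tissue and the other called astrocytic genes were added after their values were seen. Members and lists were chosen with earlier results of these data known. A further FSS mouse was not analysed here. Protein sequences were not used here.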

Additional observations from a re-analysis of the deposited data

How the results depend on the processing

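The alternatives were other variance models and tests, array weights, 2 normalizations, a filter on dim rows, all rows fitted, the mean over the rows of a symbol, the replicate number and the array spread as blocks, leaving out each mouse in turn and, chosen after seeing the data, the other row of Fabp3 and Fabp5. The 4 dim members have no value without dim rows. Directions turned for Fabp1 with array weights (-0.019), for Fabp2 with quantile normalization (0.037), median centring (0.00080) and the array spread as a block (0.064), for Fabp3 with quantile normalization (-0.00079), and for Rbp7 with quantile normalization (0.020) and the spread block (0.059). Leaving out each mouse gave log2 fold changes of -0.11 to 0.15 for Fabp1, -0.098 to 0.17 for Fabp2, -0.016 to 0.061 for Fabp3, -0.13 to 0.029 for Fabp4, 0.044 to 0.15 for Fabp5, -0.20 to -0.035 for Fabp6, -0.25 to 0.0066 for Pmp2 and -0.12 to 0.11 for Rbp7. The number of members called was 1 to 2 higher and 0 to 1 lower in these omissions, with 2 higher and 1 lower without control mouse 3. It was 2 higher with the other rows (Fabp5 0.15), and 0 at the paper's thresholds or an adjusted p of 0.05. Pathway genes called were 2 to 5 higher and 0 to 3 lower in the omissions, 2 higher by the methods' t-test and 7 higher with the replicate block. The methods' t-test called 1089 rows at an unadjusted p, 8 with the paper's fold threshold and 0 after adjustment, against 1121, 15 and 0 by limma. The labels do not say whether the replicate numbers pair the mice. Deviations of mice with the same number correlated at -0.048, 0.14 and 0.24, and those of mice with different numbers at -0.26 to 0.13. Of 6 arrays, 4 correlated best with their own number. Whether the numbers mark a pairing or a batch was not tested. With the replicate numbers as a block 1494 rows were called. The log2 fold change of Fabp7 was then 0.41 (SE 0.10, limma adjusted p = 0.714) and no call of a member changed.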
